A study of Homo sapiens with 6 samples.

Results

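The miR-30 family was described in small RNA libraries of 2 human respiratory epithelial cell lines treated with TGF-β1. The members were a fixed list of 8 names among the 2588 miRNAs counted: hsa-miR-30a-5p, hsa-miR-30a-3p, hsa-miR-30b-5p, hsa-miR-30c-5p, hsa-miR-30d-5p, hsa-miR-30d-3p, hsa-miR-30e-5p and hsa-miR-30e-3p. The remaining 3 arms of the family in the counts, hsa-miR-30b-3p, hsa-miR-30c-1-3p and hsa-miR-30c-2-3p, were not on the list and are given for context. The list was drawn up by name, with earlier results of these data known. A549 is a lung adenocarcinoma line and BEAS-2B is an immortalised bronchial epithelial line, and both were labelled as wild type. Cells of each line were left untreated (control) or received TGF-β1 at 1 or 5 ng/mL for 48 h, in medium with reduced serum. The published methods of the study name fetal bovine serum in the culture medium and do not mention a reduction. TGF-β1 is a growth factor under which epithelial cells take on mesenchymal, matrix-producing features, and the study used these treated lines as a model of pulmonary fibrosis. Each cell line and dose had 1 library, so there were 6 libraries without replicates, and treatment was neither tested nor given a p-value. Every interval given is a 95% interval that covers counting error only. Reads carried no stated molecular identifiers, so copies of 1 molecule could not be recognised and reads cannot be taken as independent molecules.

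A miRNA is a short RNA that guides Argonaute proteins to messenger RNAs, and its seed, the stretch of bases near its 5′ end, sets most of its pairing with targets. Each hairpin precursor is cut into a -5p arm and a -3p arm, of which one is usually kept in larger amount. The miR-30 -5p arms share their seed, so they are grouped as a family with common predicted targets, among them SNAI1, a repressor of E-cadherin. The family is abundant in epithelial tissues and has been described as lowered during epithelial-mesenchymal transition (EMT).

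The mature sequences are shown because the family is defined by its seed and because some members differ so little that their reads could be confused. RefSeq (GRCh38.p14) entries matched 5 of the 8 members and 2 of the 3 other arms of the family, and hsa-miR-30b-5p, hsa-miR-30d-5p and hsa-miR-30d-3p were not matched. Sequences run 5′ to 3′, and capitals mark the seed, bases 2 to 8.
hsa-miR-30a-5p: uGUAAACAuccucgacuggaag
hsa-miR-30e-5p: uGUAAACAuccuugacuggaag
hsa-miR-30c-5p: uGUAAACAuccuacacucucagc
hsa-miR-30a-3p: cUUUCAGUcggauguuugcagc
hsa-miR-30e-3p: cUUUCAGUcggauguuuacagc
hsa-miR-30c-1-3p: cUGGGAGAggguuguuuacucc
hsa-miR-30c-2-3p: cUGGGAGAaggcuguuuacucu
The 3 -5p members matched here held the seed GUAAACA, and no other mature entry of the table held it. The -3p members miR-30a-3p and miR-30e-3p shared another seed, UUUCAGU, also found in no other entry. Counted from the 5′ end, miR-30a-5p and miR-30e-5p differed by C13U alone and were identical at 21 positions. The -3p arms of the same hairpins differed by G18A alone. miR-30c-5p shared its first 12 bases with miR-30a-5p and differed from it by 5 substitutions (C13A, G14C, G18C, G19U and A20C). A read that is short or holds 1 error can thus be assigned to the wrong member of the miR-30a and miR-30e pair, and the single values of these members are uncertain to that extent.

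Total counts per library were between 633318 and 900424. hsa-miR-21-5p took 47.6 to 56.8% of the A549 libraries. In BEAS-2B cells it took 35.4% of the control but 53.3% and 57.2% of the libraries treated with 1 and 5 ng/mL. Counts were normalised by the trimmed mean of M-values (TMM), which gave the BEAS-2B control a factor of 1.32 and the other libraries factors between 0.829 and 1.02. Of the epithelial markers, hsa-miR-200c-3p had 6 to 38 counts, hsa-miR-141-3p 1 to 8 and hsa-miR-205-5p 0 to 2, while hsa-miR-200b-3p, another epithelial miRNA, had 139, 271 and 204 in A549 cells and 356, 237 and 259 in BEAS-2B cells. Of the blood markers, hsa-miR-223-3p had no count in any library, hsa-miR-451a had at most 2 and hsa-miR-144-3p at most 3. hsa-miR-486-5p had 11 to 14 counts in A549 cells. The BEAS-2B control had 35 and the treated BEAS-2B libraries 3 and 6, lower there as were several miR-30 members. Its part in their values was not tested. Liver hsa-miR-122-5p had 1 to 14 counts, muscle hsa-miR-1-3p at most 3, muscle hsa-miR-133a-3p none and neural hsa-miR-124-3p at most 1, whereas hsa-miR-9-5p had 314 to 484 counts in A549 cells and 8 in each BEAS-2B library. Fewer cells and less miRNA per cell cannot be told apart in such libraries.

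The miR-30 members took 2.88% of all counts in untreated A549 cells (exact interval 2.84 to 2.91), 1.88% with 1 ng/mL and 1.87% with 5 ng/mL of TGF-β1. The same shares in BEAS-2B cells were 2.80% (2.76 to 2.83), 1.51% and 1.63%, respectively. The share of all counts was therefore lower in each treated library than in the control of its line. A share also depends on what else fills the library, and the share of miR-21-5p moved with treatment in BEAS-2B cells as given above. Its part in the lower share was not tested.

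The -5p arm of miR-30a, the most abundant member, had counts of 9385, 6439 and 3545 in A549 cells at 0, 1 and 5 ng/mL, and 8381, 3373 and 4761 in BEAS-2B cells. Those of miR-30d-5p were 7160, 5555 and 4641, and 5511, 3335 and 3683, respectively. miR-30c-5p, which is made from both the MIR30C1 and the MIR30C2 hairpin, had 3194, 2231 and 1831 counts in A549 cells and 3077, 1412 and 1603 in BEAS-2B cells. All 3 were lower in each treated library than in the control of the same line. The counts of miR-30e-5p were 1084, 822 and 456 in A549 cells, against 1082, 734 and 1035 in BEAS-2B cells. miR-30b-5p had 554, 261 and 193 counts in A549 cells and 598, 332 and 540 in BEAS-2B cells. These last members were lowest at 5 ng/mL in A549 cells, but in BEAS-2B cells they were lowest at 1 ng/mL and near the control count at 5 ng/mL.

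Among the -3p arms, miR-30a-3p had 926, 1149 and 809 counts in A549 cells at 0, 1 and 5 ng/mL and 1350, 406 and 508 in BEAS-2B cells. miR-30e-3p had 366, 400 and 328 counts in A549 cells and 531, 315 and 313 in BEAS-2B cells. miR-30d-3p had only 41, 29 and 13 counts in A549 cells and 30, 30 and 41 in BEAS-2B cells. The raw counts of miR-30a-3p were thus highest at 1 ng/mL in A549 cells, whereas in BEAS-2B cells both treated libraries were far below the control. The other arms of the family were sparser still, with 5 to 21 counts of hsa-miR-30b-3p and 10 to 27 of hsa-miR-30c-1-3p in a library. hsa-miR-30c-2-3p had 130, 141 and 95 counts in A549 cells and 136, 51 and 55 in BEAS-2B cells.

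After TMM normalisation, miR-30a-5p had normalised counts of 9766, 6465 and 4126 in A549 cells, in order of dose. Those in BEAS-2B cells were 6447, 3905 and 4668. miR-30a-5p was the most abundant member in 5 libraries, followed by miR-30d-5p and miR-30c-5p. In A549 cells at 5 ng/mL the order of the first pair turned, with miR-30d-5p at 5401 (interval 5247 to 5559) above miR-30a-5p. With 1 ng/mL in BEAS-2B cells these members did not differ beyond their counting intervals, with normalised counts of 3905 for miR-30a-5p and 3861 for miR-30d-5p. The least abundant member was miR-30d-3p in all 6 libraries, and the highest member exceeded it by 112-fold to 357-fold. The mature members are of nearly the same length, so no length correction was applied, but ligation and amplification differ between small RNA sequences and an order of levels between members is only as good as the library preparation.

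**Figure D1:**
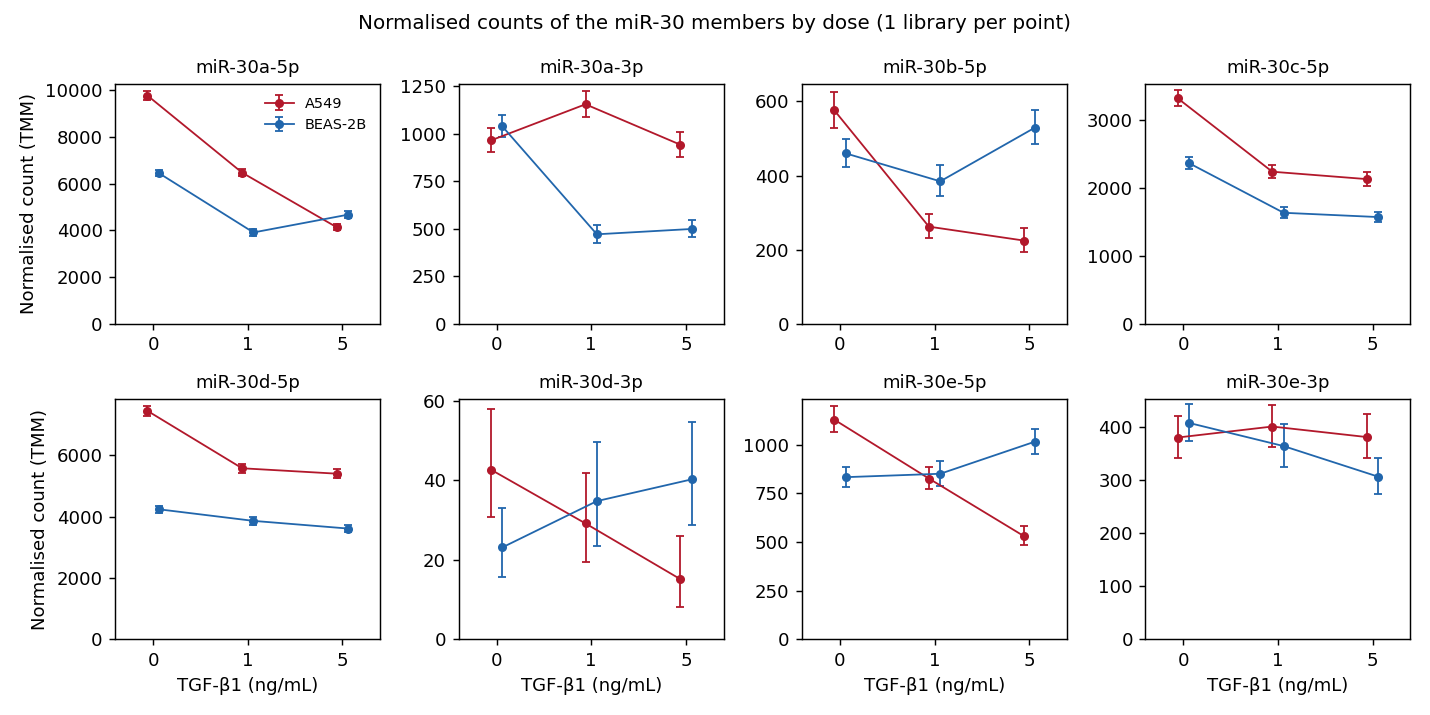
TMM-normalised count (y axis, from 0, with its own scale in each panel) of each miR-30 member against TGF-β1 dose in ng/mL (x axis, doses evenly spaced) in A549 (red) and BEAS-2B (blue) cells; points are single libraries and bars 95% counting intervals. miR-30a-5p went from 9766 to 4126 in A549 cells between the control and 5 ng/mL, while miR-30a-3p stayed near its control level there and was lower in both treated BEAS-2B libraries.

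The main comparison asked which members differed between TGF-β1-treated and untreated A549 cells. The study's thresholds were used, a fold change (FC) of at least 1.4 and a normalised data (ND) value, log2(normalised count + 1), of at least 8, here in the higher of the libraries compared. An ND of 8 is a normalised count of 255, which miR-30d-3p reached in no library, so 7 of the 8 members could pass. At 5 ng/mL in A549 cells, 4 members were lower by at least 1.4-fold and none was higher: miR-30a-5p, miR-30b-5p, miR-30c-5p and miR-30e-5p. Among the 141 miRNAs meeting the ND criterion, 26.2% were lower and 27% higher. Shares of all miRNAs, here and below, are for TMM only and are not given under other scalings. Of these 4 members, miR-30b-5p had the lowest ratio on the log2 scale, -1.36 (interval -1.60 to -1.12). The log2 ratio was -1.24 (-1.30 to -1.19) for miR-30a-5p, -1.09 (-1.25 to -0.93) for miR-30e-5p and -0.64 (-0.72 to -0.56) for miR-30c-5p. miR-30d-5p, at -0.46 (-0.52 to -0.41), was short of the fold threshold, which is 0.49 on this scale. These calls near the threshold depended on the scaling: miR-30d-5p passed under DESeq2 size factors (-0.56), TMM within each line (-0.54), TMM on miRNAs with a mean count of at least 10 (-0.59) and no scaling (-0.63), which gave 5 members, and miR-30c-5p no longer passed under total-count scaling (-0.484), which gave 3.

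Of the -3p members, miR-30a-3p and miR-30e-3p stood apart from the -5p arms of their hairpins in A549 cells. The higher dose gave miR-30a-3p a log2 ratio of -0.03 (-0.17 to 0.10) and miR-30e-3p one of 0.00 (-0.22 to 0.22), so neither differed from the control beyond counting error. Total-count scaling moved miR-30a-3p to 0.12, and most scalings gave miR-30e-3p a value below 0, the lowest being -0.16 without scaling. miR-30d-3p had a ratio of -1.44 (-2.52 to -0.57) on 13 counts. Of the other arms of the family, miR-30b-3p had a ratio of -0.85 (-2.16 to 0.24) and miR-30c-2-3p one of -0.29 (-0.69 to 0.10). That of miR-30c-1-3p was 0.60 (-0.63 to 1.98), and none of these arms met the ND criterion. In A549 cells total-count scaling moved the median over all miRNAs by 0.16 at this dose and by -0.14 at the lower one. The summed -5p members had a log2 ratio of -0.84 (-0.88 to -0.81) and the summed -3p members one of -0.05 (-0.17 to 0.06). The median over the 8 members was -0.86, and over the 7 that met the ND criterion -0.64, beside -0.03 for all miRNAs that met it.

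At 1 ng/mL in A549 cells, 3 members passed, all lower, where 21.9% of the 137 miRNAs meeting the ND criterion were lower and 27% higher. These were miR-30b-5p, with a log2 ratio of -1.13 (-1.36 to -0.92), miR-30a-5p at -0.59 (-0.64 to -0.55) and miR-30c-5p at -0.57 (-0.65 to -0.49). No miRNA meeting the criterion in this comparison had a lower ratio than miR-30b-5p. miR-30d-5p (-0.42) and miR-30e-5p (-0.45) were lower by less than 1.4-fold, but passed it under DESeq2 size factors or total-count scaling, which raised the number of members to 5. miR-30a-3p was higher than the control, at 0.26 (0.13 to 0.39), without passing. The median was -0.49 over the 8 members and -0.45 over the 7 tested, beside -0.11 over all miRNAs tested, and the summed -5p ratio was -0.53 (-0.56 to -0.50).

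In BEAS-2B cells at 5 ng/mL, 2 members passed, both lower: miR-30a-3p, with a log2 ratio of -1.06 (-1.21 to -0.91), and miR-30c-5p, with -0.59 (-0.68 to -0.50). Here 16% of the 125 miRNAs meeting the ND criterion were lower and 20% higher. miR-30a-5p, at -0.47 (-0.52 to -0.41), was just short of the fold threshold. The ratio of miR-30e-5p was 0.29 (0.16 to 0.41) and that of miR-30b-5p was 0.20 (0.03 to 0.37), but total-count scaling turned both, to -0.13 and -0.21. The scaling matters more in this line, because total-count scaling moved the median log2 ratio of all miRNAs by -0.41 and raised the members lower from 2 to 5. Total count without miR-21-5p moved that median the other way, by 0.18, and left 1 member, since miR-30c-5p no longer passed (-0.41). Under TMM the median was -0.32 over the 8 members and -0.41 over the 7 tested, beside -0.08 over all miRNAs tested.

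At 1 ng/mL in BEAS-2B cells, 3 members were lower by at least 1.4-fold and none higher, where 13.3% of the 120 miRNAs meeting the ND criterion were lower and 15.8% higher. These were miR-30a-3p, at -1.14 (-1.31 to -0.98), miR-30a-5p, at -0.72 (-0.78 to -0.67), and miR-30c-5p, at -0.53 (-0.63 to -0.44). miR-30d-5p had a ratio of -0.13 (-0.20 to -0.07) and miR-30b-5p one of -0.26 (-0.46 to -0.06). The ratio of miR-30e-5p, 0.03 (-0.11 to 0.17), held 0, and total-count scaling turned it to -0.40. Under total-count scaling, which shifted the median of all miRNAs by -0.43, 6 members were lower. The median was -0.21 over the 8 members and -0.26 over the 7 tested, and that of all miRNAs tested was -0.04.

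**Figure D2:**
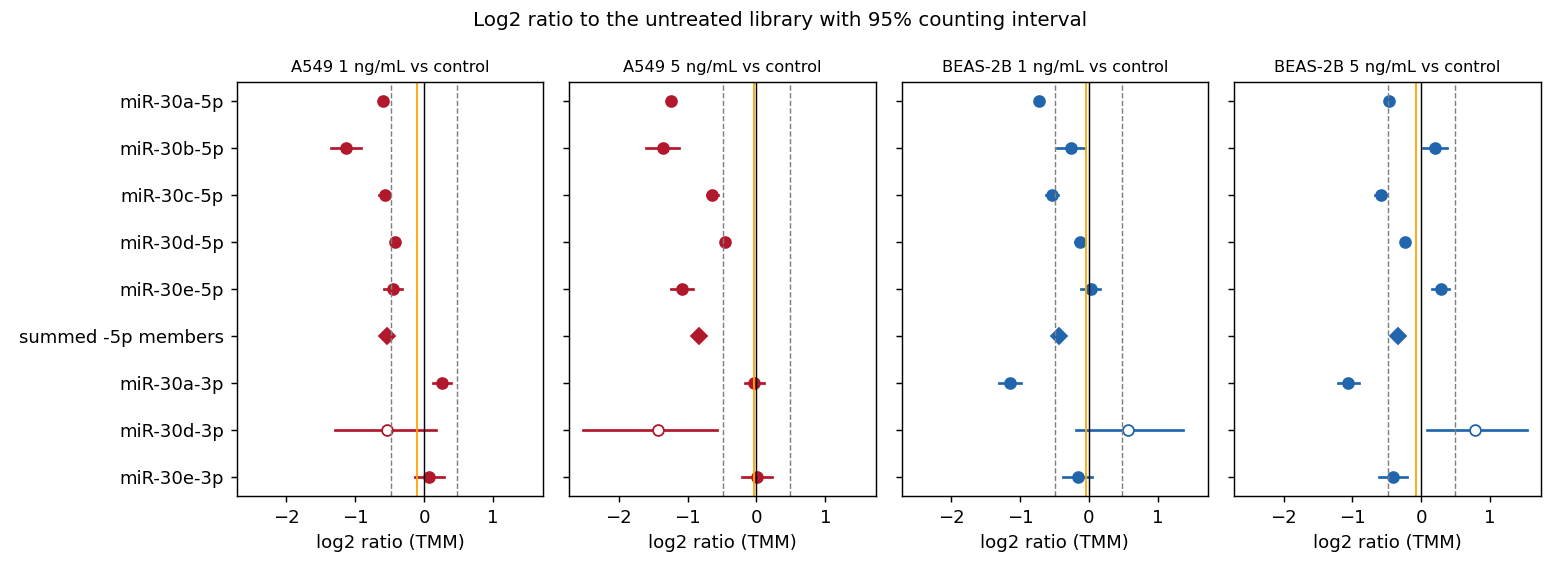
Log2 ratio to the untreated library of the same line (x axis, TMM-normalised counts) for each member and for the summed -5p members (y axis), in A549 (red) and BEAS-2B (blue) cells; bars are 95% counting intervals, open points did not reach an ND of 8, dashed lines mark a fold of 1.4 and the orange line the median of all miRNAs tested. The 5 -5p members lie left of 0 in both A549 panels, and miR-30a-3p is left of the dashed line, at -1.14 and -1.06, in the BEAS-2B panels.

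Both doses of a line were compared with 1 control library, so the agreement of their directions was not read as a result. Compared directly, A549 cells at 5 ng/mL had less miR-30a-5p than at 1 ng/mL, with a log2 ratio of -0.65 (-0.71 to -0.59), and less miR-30e-5p, with -0.64 (-0.81 to -0.47). These 2 members passed the criteria, as did 16.9% of the 130 miRNAs tested in either direction. Under total-count scaling, which moved the median of all miRNAs by 0.29, neither passed (-0.35 and -0.34). miR-30c-5p (-0.07) and miR-30d-5p (-0.05) were close to equal at the 2 doses under TMM, and total-count scaling turned them to 0.22 and 0.25. In BEAS-2B cells no member passed between the doses, beside 6.61% of 121 miRNAs in either direction. The greatest ratio there was that of miR-30b-5p, higher at 5 than at 1 ng/mL with 0.46 (0.26 to 0.66).

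The response to TGF-β1 was then set side by side between the lines, as the difference of the log2 ratios at 5 ng/mL, A549 minus BEAS-2B. For miR-30c-5p the difference was -0.05 (-0.17 to 0.07), so under TMM the lines did not differ beyond counting error. That interval holds for TMM only and does not bound the difference under other scalings. It was -1.56 (-1.85 to -1.27) for miR-30b-5p, -1.37 (-1.57 to -1.17) for miR-30e-5p and -0.78 (-0.85 to -0.70) for miR-30a-5p. These -5p members had lower ratios to their control in A549 than in BEAS-2B cells. The scaling bears on both statements, since total-count scaling put miR-30c-5p at -0.48 in the A549 line but at -1.001 in the BEAS-2B line, and miR-30a-5p at -1.09 and -0.88. For miR-30a-3p the difference had the other sign, 1.03 (0.82 to 1.23). At 1 ng/mL the differences were -0.88 (-1.16 to -0.59) for miR-30b-5p, 0.13 for miR-30a-5p and 1.4 (1.20 to 1.60) for miR-30a-3p, so under TMM the sign for miR-30a-5p differed between the doses. Under quantile normalisation the 1 ng/mL ratio of miR-30a-5p was instead lower in A549 cells (-0.92) than in BEAS-2B cells (-0.52), as at 5 ng/mL. These differences were not tested.

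In the untreated lines, 3 members passed, all higher in A549 than in BEAS-2B cells, where 68.9% of the 135 miRNAs tested passed in either direction. The log2 ratio was 0.81 (0.76 to 0.86) for miR-30d-5p, 0.60 (0.56 to 0.64) for miR-30a-5p and 0.49 (0.42 to 0.56) for miR-30c-5p. This comparison rested on the scaling. Total-count scaling moved the median of all miRNAs by -0.54, gave miR-30c-5p a ratio of -0.05, and left miR-30d-5p at 0.27 and miR-30a-5p at 0.06, so none of the 3 passed. The members that passed were then miR-30a-3p (-0.65) and miR-30e-3p (-0.64), both lower in A549 cells, and the same pair passed as lower without scaling (-0.54 each). The members' share of all counts, 2.88% and 2.80% in the untreated libraries, was nearly equal.

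The make-up of the -5p pool within a library needs no scaling. miR-30a-5p made up 43.9% (exact interval 43.2 to 44.6) of the -5p members' counts in untreated A549 cells, 42.1% with 1 ng/mL and 33.2% (32.3 to 34.1) with 5 ng/mL. miR-30d-5p took 33.5%, 36.3% and 43.5% of the same pool, and thus became the main -5p member at 5 ng/mL. In BEAS-2B cells miR-30a-5p made up 44.9%, 36.7% and 41.0%, and miR-30d-5p 29.6%, 36.3% and 31.7%, so the shift seen at 1 ng/mL was smaller at 5 ng/mL. miR-30c-5p stayed between 13.8% and 17.2% in all 6 libraries. The share of miR-30e-5p in BEAS-2B cells went from 5.80% in untreated cells to 7.99% with 1 ng/mL and 8.91% with 5 ng/mL, whereas in A549 cells it was 5.07%, 5.37% and 4.28%. miR-30b-5p made up 2.59%, 1.70% and 1.81% of the pool in A549 cells and 3.21%, 3.61% and 4.65% in BEAS-2B cells.

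**Figure D3:**
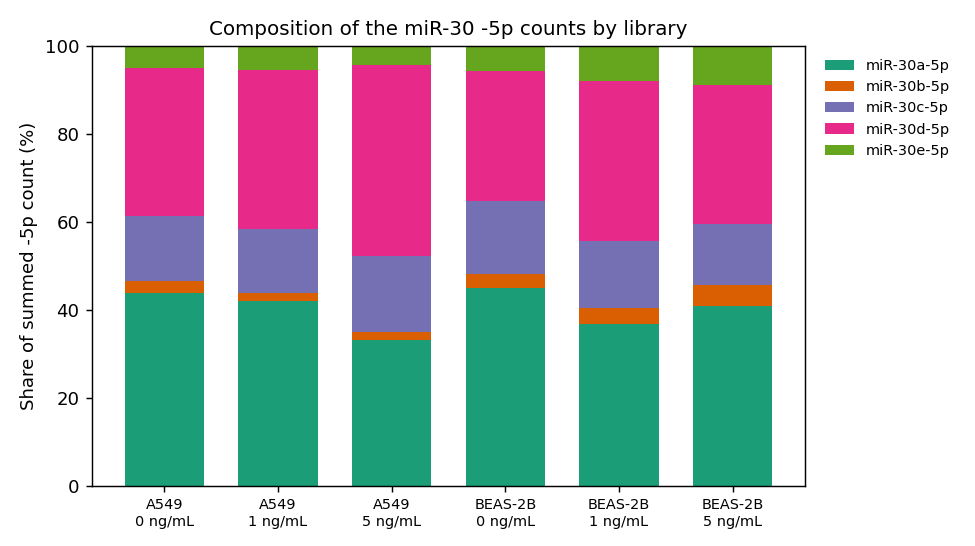
Share of each -5p member in the summed -5p counts (y axis, percent, stacked to 100) in each library (x axis, cell line and TGF-β1 dose). The miR-30a-5p share is smallest, 33.2%, in A549 cells at 5 ng/mL, where miR-30d-5p has its largest share, 43.5%.

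The ratio of -5p to -3p counts from the same hairpin also needs no scaling. For miR-30a, untreated A549 cells had 10.1 -5p counts per -3p count (exact interval 9.47 to 10.9), against 5.6 (5.26 to 5.97) with 1 ng/mL and 4.38 (4.06 to 4.74) with 5 ng/mL. In BEAS-2B cells the ratio was 6.21 (5.86 to 6.58) in the control, 8.31 (7.49 to 9.23) with 1 ng/mL and 9.37 (8.55 to 10.3) with 5 ng/mL. The ratio was therefore lower in both treated A549 libraries and higher in both treated BEAS-2B libraries than in the control of the line, with no overlap of the counting intervals. The log2 change at 5 ng/mL was -1.21 (-1.36 to -1.06) in A549 cells and 0.59 (0.44 to 0.75) in BEAS-2B cells.

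miR-30e, whose arms nearly match those of miR-30a in sequence, had ratios of 2.96 (2.63 to 3.34), 2.06 (1.82 to 2.32) and 1.39 (1.20 to 1.61) in A549 cells. In BEAS-2B cells they were 2.04 (1.83 to 2.26), 2.33 (2.04 to 2.67) and 3.31 (2.91 to 3.76). The log2 change was -0.53 and -1.09 in A549 cells at 1 and 5 ng/mL, and 0.19 (-0.05 to 0.44) and 0.70 (0.46 to 0.93) in BEAS-2B cells. The direction was that of miR-30a in each line, but the change at 1 ng/mL in BEAS-2B cells was within counting error. For miR-30d the direction was the other one, with log2 changes of 1.03 (0.13 to 1.93) in A549 cells and -1.03 (-1.71 to -0.35) in BEAS-2B cells at 5 ng/mL. These rest on 13 to 41 counts of miR-30d-3p per library, which gave wide intervals.

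Over all hairpins with at least 10 counts of each arm in both libraries compared, arm ratios changed often. In A549 cells at 1 ng/mL the ratio was lower by at least 1.4-fold in 2 of the 3 family hairpins with both arms among the members, miR-30a and miR-30e, and in 11.3% of 71 hairpins. At 5 ng/mL the same 2 family hairpins were lower, beside 25.4% of 71 hairpins. In BEAS-2B cells none of the 3 was higher by 1.4-fold at 1 ng/mL, beside 19.1% of 68 hairpins. There miR-30a and miR-30e were higher at 5 ng/mL, beside 20% of 70 hairpins. The miR-30d ratio passed 1.4-fold the other way. In BEAS-2B cells it was lower at 1 ng/mL, at -0.72 (-1.46 to 0.01), beside 6 of 68 hairpins, and at 5 ng/mL, beside 15 of 70. In A549 cells it was higher at 5 ng/mL, beside 24 of 71 hairpins. The median log2 change over all hairpins was between -0.06 and 0.15 in these comparisons. A change past 1.4-fold in opposite directions in the 2 lines at 5 ng/mL was not particular to the family: of 57 hairpins with both arms at 10 counts in all 6 libraries, 7 had a lower ratio in A549 but a higher one in BEAS-2B cells, miR-30a and miR-30e among them, and 8 the reverse, miR-30d among them.

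**Figure D4:**
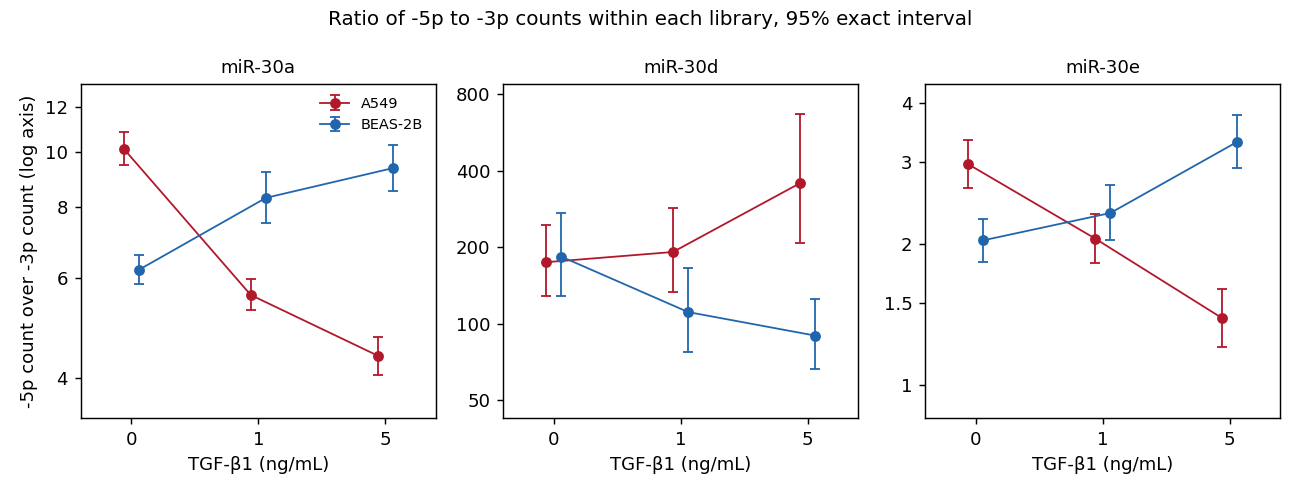
Ratio of -5p to -3p counts (y axis, log scale, its own range in each panel) of the miR-30a, miR-30d and miR-30e hairpins against TGF-β1 dose in ng/mL (x axis, doses evenly spaced) in A549 (red) and BEAS-2B (blue) cells; points are single libraries and bars exact 95% intervals. The miR-30a ratio runs from 10.1 to 4.38 in A549 cells and from 6.21 to 9.37 in BEAS-2B cells, and the lines cross.

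The family is encoded by 6 hairpins in 3 pairs (GENCODE 29, GRCh38). MIR30E (chr1:40754355-40754446, plus strand) and MIR30C1 (chr1:40757284-40757372, plus strand) lie 2837 bases apart in an intron of the protein-coding gene NFYC. MIR30A (chr6:71403551-71403621, minus strand) and MIR30C2 (chr6:71376960-71377031, minus strand) lie 26519 bases apart in introns of the long non-coding RNA genes LINC00472 and AL136164.2. MIR30B (chr8:134800520-134800607, minus strand) and MIR30D (chr8:134804876-134804945, minus strand) lie 4268 bases apart in no annotated gene. miR-30c-5p can come from either of its hairpins, so its counts cannot be divided between chromosomes 1 and 6.

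Ratios between the products of 1 pair again need no scaling. miR-30b-5p counts were 7.74% of those of miR-30d-5p in untreated A549 cells (exact interval 7.08 to 8.44), 4.70% (4.13 to 5.32) with 1 ng/mL and 4.16% (3.58 to 4.80) with 5 ng/mL. In BEAS-2B cells the value was 10.9% (9.96 to 11.8), 9.96% (8.87 to 11.1) and 14.7% (13.4 to 16.1), respectively. The products of these neighbouring hairpins were thus not in 1 fixed proportion, and in A549 cells miR-30b-5p was lower relative to miR-30d-5p after treatment. The count of miR-30c-2-3p, the arm that only MIR30C2 gives, was between 10.1% and 14.0% of that of miR-30a-3p, and the intervals of all 6 libraries overlapped. These intervals were wide, for example 9.20 to 16.8 on 51 counts with 1 ng/mL in BEAS-2B cells. Their overlap therefore cannot show that the proportion was kept. In BEAS-2B cells, miR-30c-2-3p had log2 ratios to the control of -0.81 (-1.32 to -0.35) with 1 ng/mL and -0.94 (-1.44 to -0.49) with 5 ng/mL, beside -1.14 and -1.06 for miR-30a-3p. It did not reach the ND criterion in any library.

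Since miR-30a-5p and miR-30e-5p differ at 1 base, their proportion was examined as well. miR-30e-5p was 11.6%, 12.8% and 12.9% of miR-30a-5p in A549 cells, where the intervals overlapped. It was 12.9% (12.1 to 13.8) in untreated BEAS-2B cells and 21.8% (20.1 to 23.6) and 21.7% (20.3 to 23.3) after treatment. In the same line, miR-30e-3p was 39.3% (35.5 to 43.5) of miR-30a-3p in the control and 77.6% (66.8 to 90.1) and 61.6% (53.3 to 71.1) after treatment, while in A549 cells it was between 34.8% and 40.5%. Both arms of miR-30e therefore gained on the matching arm of miR-30a in treated BEAS-2B cells. With the counts of both miRNAs merged, the -5p log2 ratio was -0.58 and -1.23 in A549 cells at 1 and 5 ng/mL and -0.61 and -0.36 in BEAS-2B cells, and the -3p ratio was 0.21 and -0.02, and -0.79 and -0.85, respectively.

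Base composition was set beside these values, since ligation and amplification can depend on it. The GC content was 45.5% for miR-30a-5p, 40.9% for miR-30e-5p, 43.5% for miR-30c-5p, 50% for miR-30a-3p and 45.5% for miR-30e-3p, beside a median of 47.6% over the miRNAs tested. Across 131 miRNAs, the log2 ratio at 5 ng/mL in A549 cells had a Spearman rho of 0.24 with GC content (Pearson r 0.22), and across 116 miRNAs in BEAS-2B cells rho was -0.08 (r -0.02). For 5 against 1 ng/mL in A549 cells, where miR-30a-5p and miR-30e-5p passed, rho was 0.33 (r 0.32) across 121 miRNAs. These points share their libraries and are not independent. The part of base composition in the A549 values was not tested.

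The miRNAs most like the summed -5p members were sought among 75 miRNAs outside the family, by Pearson's r of the ND over the 6 libraries. hsa-miR-23b-3p was the most similar (r = 0.98), followed by hsa-miR-29a-3p (r = 0.94) and hsa-miR-450a-5p (r = 0.94). The counts of miR-23b-3p were 2154, 1454 and 1151 in A549 cells and 1757, 868 and 1209 in BEAS-2B cells. The values share their 6 libraries and scaling factors, and r is given as a description. Within the family, the highest r was that of miR-30d-3p with miR-30e-5p (0.95), although miR-30d-3p had only 13 to 41 counts. The ND of miR-30c-5p had an r of 0.89 with that of miR-30d-5p and 0.88 with that of miR-30a-5p. miR-30b-5p had an r of 0.87 with miR-30e-5p, whereas miR-30e-5p had an r of -0.33 with miR-30e-3p, the other arm of its own hairpin.

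Other miRNAs linked to EMT were taken as lists for context. Of 8 epithelial miRNAs described as lowered in EMT, at most 1 met the ND criterion in a comparison with the control, hsa-miR-200b-3p, and none passed both criteria as lower. Below the ND criterion, hsa-miR-34a-5p had a log2 ratio of -1.14 (102 and 41 counts) and hsa-miR-203a-3p one of -1.80 (18 and 4 counts) at 5 ng/mL in A549 cells, and hsa-miR-200a-3p one of -0.78 (73 and 33 counts) at 5 ng/mL in BEAS-2B cells. Other values below it were higher than the control at the same dose. In A549 cells hsa-miR-429 had a ratio of 1.31 (8 and 19 counts) and miR-200b-3p one of 0.71 (139 and 204 counts). In BEAS-2B cells miR-34a-5p had a ratio of 1.42 (23 and 50 counts), so the list had no single direction. The ratio of miR-200b-3p was 0.91 at 1 ng/mL in A549 cells, where it passed as higher, whereas BEAS-2B cells gave 0.00 with 1 ng/mL and -0.11 with 5 ng/mL. Of 8 miRNAs described as raised by TGF-β or in EMT, the criterion was met by 5 in A549 cells and by 4 in the other line. In each of the 4 comparisons 3 of these passed as higher and none as lower, hsa-miR-181a-5p and hsa-miR-181b-5p among them each time. The others that met the ND criterion did not pass, and most were below the control. At 1 and 5 ng/mL in A549 cells, hsa-miR-10b-5p had ratios of -0.17 and -0.39, and miR-21-5p 0.23 and -0.32. In BEAS-2B cells hsa-miR-155-5p had -0.46 and -0.44. Of all miRNAs tested, 27% were higher at either dose in A549 cells, and 15.8% and 20% in BEAS-2B cells. The list medians were 1.24 and 1.18 in A549 cells, beside -0.11 and -0.03 for all miRNAs tested, and 0.97 and 1.05 in BEAS-2B cells, beside -0.04 and -0.08. The miR-30 -5p members had medians of -0.57 and -1.09 in A549 cells and -0.26 and -0.23 in BEAS-2B cells.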

How the data were processed

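Small RNA libraries of A549 and BEAS-2B cells were made from total RNA with the NEBNext small RNA kit, and per the labels each of the 6 groups was 1 library. The authors deposited raw read counts per mature miRNA, whole numbers without normalisation. The submitters' processing notes name Bowtie2 and bedtools. The miRNA annotation, genome build and strand setting used for counting are not given in the sources used here, nor is the normalisation behind the study's ND value.

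Counts were normalised by TMM over all 6 libraries with edgeR 4.0.16 (R 4.3.3), expressed per mean effective library size, 749498. ND was log2(normalised count + 1), with a pseudocount of 1, and a log2 ratio was a difference of ND values. Which library had to reach an ND of 8 is not given, and the higher one was taken. Ratio intervals came from the exact conditional binomial (Clopper-Pearson). Those of changes in an arm ratio and of differences between lines came from combined standard errors, an approximation that is rough at low counts. Results were recomputed under 7 other scalings, among them DESeq2 1.42.0 size factors, total-count scaling and limma 3.58.1 quantile normalisation, and under other ND, fold and pseudocount settings. The 8 members, the 3 other arms and the 3 most similar miRNAs were named by rule. The members and lists were chosen with earlier results of these data known. The minimum of 10 counts per arm, the ratios between members and the merging of miR-30a with miR-30e were chosen after the data were seen. Statistics were tested on simulated counts that held counting error only. That simulation had no copies of molecules and no variation between cultures, so it cannot speak to either. Python 3.11.15, numpy 2.4.6, pandas 2.3.3, scipy 1.17.1 and matplotlib 3.10.9 were used.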

Additional observations from a re-analysis of the deposited data

Results flagged for a closer look

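In 6 results, the values, whatever their intervals, lay on opposite sides of the control in A549 and BEAS-2B cells at both doses. None of these differences was tested, since each group had 1 library and both doses of a line share a control. The difference of log2 ratios at 5 ng/mL, A549 minus BEAS-2B, was -2.21 for miR-30d-3p, which did not reach an ND of 8, -1.37 for miR-30e-5p and 0.41 for miR-30e-3p. The direction of miR-30e-5p in BEAS-2B cells and that of miR-30e-3p in A549 cells changed with the scaling. For the ratio of -5p to -3p counts, which no scaling changes, the difference of log2 changes was -1.80 (-2.02 to -1.59) for miR-30a, -1.79 (-2.15 to -1.43) for miR-30e and 2.06 (0.93 to 3.19) for miR-30d. Some values were within counting error of the control, among them miR-30e-3p in A549 cells at 5 ng/mL, at 0.00 (-0.22 to 0.22). At 1 ng/mL the difference for the miR-30d arm ratio was 0.86 (-0.15 to 1.86), an interval that held 0.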

How the results depend on the processing

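Each group had 1 library, so leaving out a replicate was not run, and all limits here concern scaling and thresholds. No paired analysis was possible because the groups compared share fewer than 2 replicate numbers, and a fit with cell line as a block was not run. Of 161 alternative values of the main results, 96 stayed within their margin and 65 moved. Staying within the margin did not mean unchanged, since a number of members could differ by 1. At 5 ng/mL in A549 cells, for example, 3 and 5 members were counted as staying beside the main number of 4. The number passing between the untreated lines counts either direction: the 3 members higher in A549 cells gave way to 2 lower ones, miR-30a-3p and miR-30e-3p, under total-count scaling and without scaling. Of 476 values of single members, 307 stayed, 168 moved, 37 changed sign (in 17 results), and 1 passed value turned: miR-30c-5p between the untreated lines, -0.049 under total-count scaling. The arm ratios and pool shares do not depend on scaling. miR-30d-3p, with 13 to 41 counts, was limited by depth. The cause of the values below was not tested beyond each setting's own construction.

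The members lower at 1 ng/mL in A549 cells (3) numbered 5 under DESeq2 size factors, 5 under total-count scaling and 1 at a fold of 2. At 1 ng/mL in BEAS-2B cells (3) they numbered 6 under total-count scaling, 7 without scaling and 1 at a fold of 2. At 5 ng/mL in BEAS-2B cells (2) they numbered 4 under DESeq2, 5 under total-count scaling, 5 without scaling, 5 under TMM on miRNAs with a mean count of at least 10, and 1 under total count without miR-21-5p or at a fold of 2. Between the doses in A549 cells (2), 0 passed under total-count scaling or at a fold of 2, and 1 with an interval wholly beyond 1.4-fold. In BEAS-2B cells (0), 3 passed without scaling and 1 under total count without miR-21-5p. Between the untreated lines (3), 1 passed under TMM within each line, 1 under TMM on a mean count of 10 and 0 at a fold of 2. The number at 5 ng/mL in A549 cells (4) was 3 to 5 under all alternatives run. The share of all miRNAs passing is given for the main setting only, so these numbers have no background beside them. At 5 ng/mL in BEAS-2B cells, the median of all miRNAs moved by -0.41 under total-count scaling and by -0.35 without scaling. TMM on a mean count of 10 moved it by -0.30, and total count without miR-21-5p by 0.18. At 1 ng/mL it moved by -0.43 under total-count scaling and by -0.59 without scaling.

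The summed -5p log2 ratio is given for A549 cells at 1 and at 5 ng/mL, then BEAS-2B cells at 1 and at 5 ng/mL. It was -0.63, -0.93, -0.50 and -0.45 under DESeq2, and -0.67, -0.68, -0.86 and -0.74 under total-count scaling. It was -0.48, -1.003, -1.02 and -0.68 without scaling, and -0.59, -0.97, -0.61 and -0.63 under TMM on a mean count of 10. It was -0.72, -1.01, -0.29 and -0.15 under quantile normalisation, and -0.49, -0.59, -0.23 and -0.23 without miR-30a-5p. TMM within each line gave -0.60 and -0.91 in A549 cells, and total count without miR-21-5p gave -0.39 and -0.15 in BEAS-2B cells. Between the doses in A549 cells it was -0.014 under total-count scaling, -0.52 without scaling, -0.38 under TMM on a mean count of 10 and -0.10 without miR-30a-5p. In BEAS-2B cells it was 0.053 under DESeq2, 0.34 without scaling, 0.24 without miR-21-5p in the total, -0.013 under TMM on a mean count of 10, 0.15 under quantile normalisation and -0.000809 without miR-30a-5p. Between the untreated lines it was 0.58 under DESeq2, 0.094 under total-count scaling, 0.43 under TMM within each line, 0.20 without scaling, 0.56 without miR-21-5p in the total, 0.31 under TMM on a mean count of 10 and 0.68 under quantile normalisation.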
